A study of Mus musculus with 6 samples.

Results

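The genes described here encode the proteasome and its direct regulators in mouse B cells. They were chosen by symbol, as every gene on the array whose name begins Psma, Psmb, Psmc, Psmd, Psme, Psmf or Psmg followed by a number. This took in 49 of 19057 genes with a named probe, read by 86 probes. By role they were 8 genes of the 20S alpha ring, 8 of the 20S beta ring, 3 immunoproteasome beta subunits, 20 of the 19S particle, 4 activators and 4 assembly chaperones. The other 2, Psmc3ip, a factor of meiotic recombination, and Psme3ip1, a partner of the Psme3 activator, are not proteasome subunits and entered by their letters alone.

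The cells were splenic follicular B cells of 3 C57BL/6 mice with floxed Yy1 alleles (yy1 f/f), selected with an antibody to CD23. The cells of each mouse were split between TAT-CRE, a cell-penetrating Cre recombinase protein given to delete Yy1, and a mock treatment, which gave 3 TAT-CRE and 3 mock arrays. Both groups carried the floxed alleles, and both were cultured for 72 hours in RPMI with LPS, IL4, OPI and 20% serum, so every array reads activated B cells. Yy1 encodes a zinc finger transcription factor, and the stated purpose was its part in class switching. Since no array of TAT-CRE on cells lacking the floxed alleles was used, an effect of the Cre protein itself and an effect of losing Yy1 cannot be told apart. The labels do not give the ages of the mice.

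The 26S proteasome is the machine that unfolds and degrades proteins tagged with ubiquitin. Its 20S core is a barrel of alpha rings, which gate the entrance, and beta rings, which hold the protease sites, and the 19S particle caps the barrel, with a base of ATPases that unfold the substrate and a lid that removes the ubiquitin chain. Lymphoid cells carry much of an alternative form, the immunoproteasome, in which Psmb8, Psmb9 and Psmb10 stand in for Psmb5, Psmb6 and Psmb7 and whose peptides supply MHC class I molecules. Transcription of the subunit genes is known to be raised together by NFE2L1 through antioxidant response elements when degradation is short.

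The promoters of 3 members are printed to show the motif search, and no result on expression rests on them. Psmd11 is the member whose fall is described first, and Psmb5 and Psmb6 are the members whose promoters matched both motifs searched. Windows run from 250 bases before the annotated RefSeq start to 30 bases after it (build GRCm38.p6, 5′ to 3′ on the strand of the gene). Capitals mark matches to AANATGGC, the core of the YY1 binding site, or TGACNNNGC, the core of the antioxidant response element, each searched on both strands.
Psmd11, chr11:80428365-80428644, plus strand: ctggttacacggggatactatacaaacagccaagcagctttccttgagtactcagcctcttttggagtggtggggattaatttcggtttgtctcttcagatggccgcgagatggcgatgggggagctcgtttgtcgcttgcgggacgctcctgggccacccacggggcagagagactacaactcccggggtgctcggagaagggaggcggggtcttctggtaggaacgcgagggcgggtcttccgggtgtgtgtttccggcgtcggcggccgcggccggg
Psmb5, chr14:54617966-54618245, minus strand: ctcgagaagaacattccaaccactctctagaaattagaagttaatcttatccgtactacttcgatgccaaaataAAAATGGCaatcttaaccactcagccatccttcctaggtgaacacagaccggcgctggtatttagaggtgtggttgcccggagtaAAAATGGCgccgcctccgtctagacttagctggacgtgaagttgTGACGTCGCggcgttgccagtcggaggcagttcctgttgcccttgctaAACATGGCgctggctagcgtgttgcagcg
Psmb6, chr11:70525107-70525386, plus strand: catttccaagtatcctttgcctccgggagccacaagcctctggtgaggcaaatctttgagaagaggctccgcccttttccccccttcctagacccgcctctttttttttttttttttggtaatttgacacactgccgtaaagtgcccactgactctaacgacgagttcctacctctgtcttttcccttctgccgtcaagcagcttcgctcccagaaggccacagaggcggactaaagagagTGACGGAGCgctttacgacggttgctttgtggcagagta
The Psmb5 window held AANATGGC at 3 places, beginning at -176, -91 and 2, and TGACNNNGC beginning at -47, with bases counted from 1 at the annotated start and from -1 just before it. The Psmb6 window held TGACNNNGC beginning at -9, and AANATGGC at 38, beyond the printed stretch. Neither motif matched in the Psmd11 window, which says only that these letters are not in it.

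Yy1, the targeted gene, checks the labels. Its probe read 153, 140 and 134 in TAT-CRE cells, against 455, 409 and 439 in mock cells, in the authors' linear intensity units. On the 3 TAT-CRE arrays it was not well above background, and on the deposited intensities it was at least 2.49-fold lower there. The background-corrected fit described below gave a limma adjusted p of 1.91e-07. The probe entered that test through the mock arrays, where it is high, so the check of the labels rests on the readings and not on this p. Background was taken per array as the 95th percentile of probes for olfactory and vomeronasal receptors. The "at least" ratio sets the mock mean against the lowest signal above background on each TAT-CRE array, as means of log2 values. The labels do not say whether the probe reads the floxed part of Yy1.

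Differences below are TAT-CRE minus mock on a background-corrected log2 intensity scale, from a limma fit with the mouse as a block. A probe was tested if it was above background on at least 3 arrays, and it counts as changed at a Benjamini-Hochberg adjusted p under 0.05 over all 19217 tested probes. The median difference over those probes was 0.005. The number of arrays limits the precision. The mock arrays varied more than the TAT-CRE arrays: of 71 tested proteasome probes, mock 1, 2 and 3 had 13, 11 and 6 that lay over 0.5 from the mean of the other arrays of their group, against 2, 2 and 3 for TAT-CRE 1, 2 and 3. Among all tested probes the shares were between 9.64% and 19.6% for mock arrays and between 5.78% and 6.72% for TAT-CRE arrays, so the spread was not confined to these genes.

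The B cell label held. Of 21 probes for B cell markers 17 were tested, and those of Cd79b, Cd74, Pou2af1 and Fcer2a, which encodes CD23, were above background on all 6 arrays, while both probes of the complement receptor Cr2 were above it on none. The probes of Cd3d, Cd3e, Cd3g and Cd8a, which define T cells, and of Ncr1 were above background on none. Other T cell probes were above it: 1 of 2 for Thy1 on 6 arrays, at 6683, 4247 and 4941 in TAT-CRE cells, against 4871, 6410 and 6297 in mock cells, Cd2 on 6 arrays and 1 of 2 for Cd4 on 4, and none of these 3 was called. The summed intensity of 12 T cell probes was 5956 to 8496 in TAT-CRE and 6696 to 8145 in mock cells. For 16 myeloid probes, with Cd14, Itgam and S100a8 above background on no array, the sum was 2509 to 2622 in TAT-CRE and 2354 to 2383 in mock cells, groups that did not overlap. Of 3 tested myeloid probes 1 was called higher, for Lyz1 (0.78, limma adjusted p = 0.00986). That probe was dim, at 233, 209 and 197 in TAT-CRE cells, against 171, 174 and 146 in mock cells. It was above background on 3 TAT-CRE arrays and 1 mock array. It thus entered the test through the group where it is high, and its call is no support for a rise. The other Lyz1 probes were above background on no array. The other 2 tested probes, for Adgre1, differed by 0.32 and 0.44 without passing (limma adjusted p = 0.339 and 0.159). The sum of 2 erythroid probes was 335 to 436 in TAT-CRE and 299 to 327 in mock cells, also without overlap, and the tested one, for Hba-a1, differed by 0.53 (limma adjusted p = 0.113). Of the 17 tested B cell probes 3 fell and 0 rose in limma, 17.6% lower, against 7.15% of all tested probes. They read Cd74, Blnk and Fcer2a (by 0.98, 0.67 and 0.58), each 1 of several probes of its gene. At an unadjusted p under 0.05 in limma 3 were higher and 3 lower. The higher ones read Cd79b (0.52 and 0.50) and Ms4a1 (0.505), with limma adjusted p between 0.0737 and 0.106. The summed B cell intensity was 211479 to 226329 in TAT-CRE and 201302 to 235319 in mock cells, overlapping ranges. All these sums include background, which was not subtracted from the deposited intensities. Of the 16 myeloid probes 13 were not tested, so that sum is largely background. The bright Thy1 probe gives most of the T cell sum, and Cd74 probes give most of the B cell sum. The sums therefore do not measure the share of a cell type. Of 4 natural killer probes 0 were tested, and of 5 tested plasma cell probes 1 rose, for Jchain (0.64, limma adjusted p = 0.0384). The others did not pass and lay on both sides of 0. Xbp1 differed by 0.16, and Irf4, Mzb1 and Prdm1 by -0.55, -0.235 and -0.14 (limma adjusted p between 0.0819 and 0.666). The part of such cells in the proteasome values was not tested. In bulk RNA, fewer cells of a type and less RNA per cell cannot be told apart.

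Most proteasome genes did not pass the test, and those that did fell. Of 71 tested probes, 3 were lower in TAT-CRE cells and 0 higher in limma, which is 4.23% of them, against 13.7% of all tested probes called in either direction, 7.15% lower and 6.56% higher. The called probes read Psmd11 (2 of its probes) and Psmc3, both of the 19S particle. The 19S genes held 32 of the 71 tested probes, of which 9.38% were called lower, near the 7.15% of all tested probes. Other roles had between 3 and 12 tested probes each, and a difference between roles was not tested. At an unadjusted p under 0.05 the counts were 7 lower (9.86%) and 0 higher, against 14.1% lower and 13.3% higher over all tested probes, and the fit without the mouse also called 3 lower and 0 higher. The median difference over the 71 probes was -0.06.

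**Figure D1:**
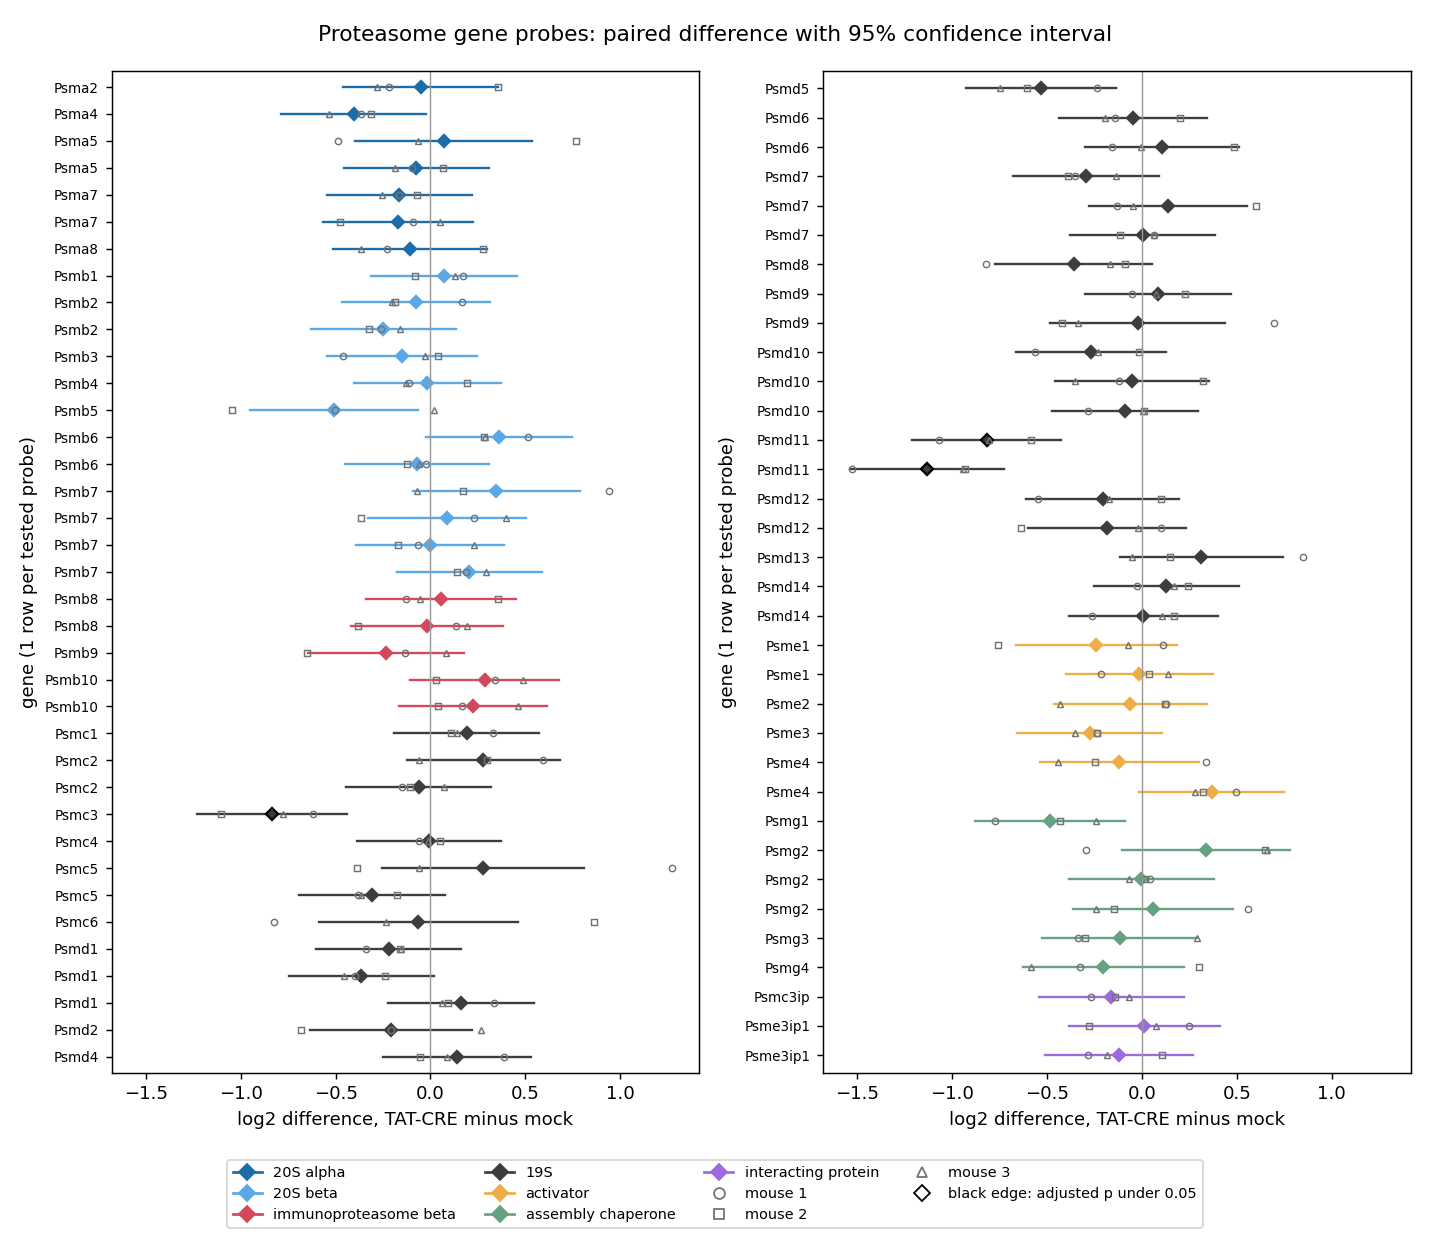
Paired log2 difference (TAT-CRE minus mock) of the 71 tested probes, 1 row per probe, coloured by role: diamonds are the fitted differences, lines their 95% confidence intervals and open symbols the 3 mice. Both Psmd11 rows and the Psmc3 row lie left of the others, with black edges for an adjusted p under 0.05, and most other intervals cross 0.

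The intervals show how large a change the other probes could hide. Their widths rest mostly on the spread of all probes, and little on how well the mice agree on a probe. For 68 of 71 probes the 95% confidence interval lay within a 2-fold change either way, and for 39 within a 1.5-fold change. The 3 exceptions to the first were the called probes. A missed threshold does not show equal levels, and for any single probe a difference under about 1.5-fold was mostly not detectable with 3 mice. In simulated data 11.2% of log2 changes of 0.5 were called, and 90% of changes of 1. There, of 19217 probes only 80 changed by 0.5, 80 by 1 and 40 by 2. In the real data 13.7% of tested probes were called, so the adjustment was less strict than in the simulation. The simulated shares are therefore not the shares that could be detected here.

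Psmd11 encodes a lid subunit, known as Rpn6, that clamps the 19S particle onto the 20S core. Probe ILMN_2888116 read 538, 584 and 486 in TAT-CRE cells of mice 1, 2 and 3, against 1375, 1029 and 849 in mock cells. All TAT-CRE values lay below all mock values, and mock 1 was the highest array. It fell by 1.13 on the log2 scale, a 2.19-fold change (SE 0.19, limma adjusted p = 0.000832), with a 95% confidence interval of -1.54 to -0.73 and a lower value in each of 3 mice.

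A second Psmd11 probe, ILMN_1214057, read 868, 868 and 716 in TAT-CRE cells, against 1715, 1252 and 1180 in mock cells. Again the groups did not overlap and mock 1 was highest. The difference was -0.82 (SE 0.19, limma adjusted p = 0.00745). The remaining probe was above background on no array and gave no test. Without mouse 1, whose mock array was highest, the differences were -0.94 and -0.69 (limma adjusted p = 0.00278 and 0.0431), both still past the threshold. In the main fit, most of the spread behind the SE, interval and adjusted p already comes from all probes together. That fit had 16.73 degrees of freedom per probe, more than 6 arrays alone can give. For Psmc4 the differences by mouse were -0.058, 0.049 and -0.012, yet the SE was 0.18. With a mouse left out, here and below, the fit takes its spread almost wholly from all probes. The Yy1 probe shows this, with a limma adjusted p of 3.65e-29 without mouse 1, against 1.91e-07 in the main fit. Such values do not measure how well the remaining mice agree on a probe, and the values of the main fit do so only in small part.

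Psmc3 encodes the base ATPase known as Rpt5, 1 of the ring of ATPases that pull substrates into the core. Its only probe read 2483, 1826 and 2231 in TAT-CRE cells, against 3768, 3816 and 3762 in mock cells. The mock arrays lay within a few percent of each other and every TAT-CRE array lay well below them. Psmc3 fell by 0.83 on the log2 scale (SE 0.19, 95% confidence interval -1.23 to -0.44, limma adjusted p = 0.00650), a 1.78-fold difference seen in each of 3 mice. With 1 mouse left out the difference was between -0.94 and -0.70, and the largest adjusted p was 0.0265.

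**Figure D2:**
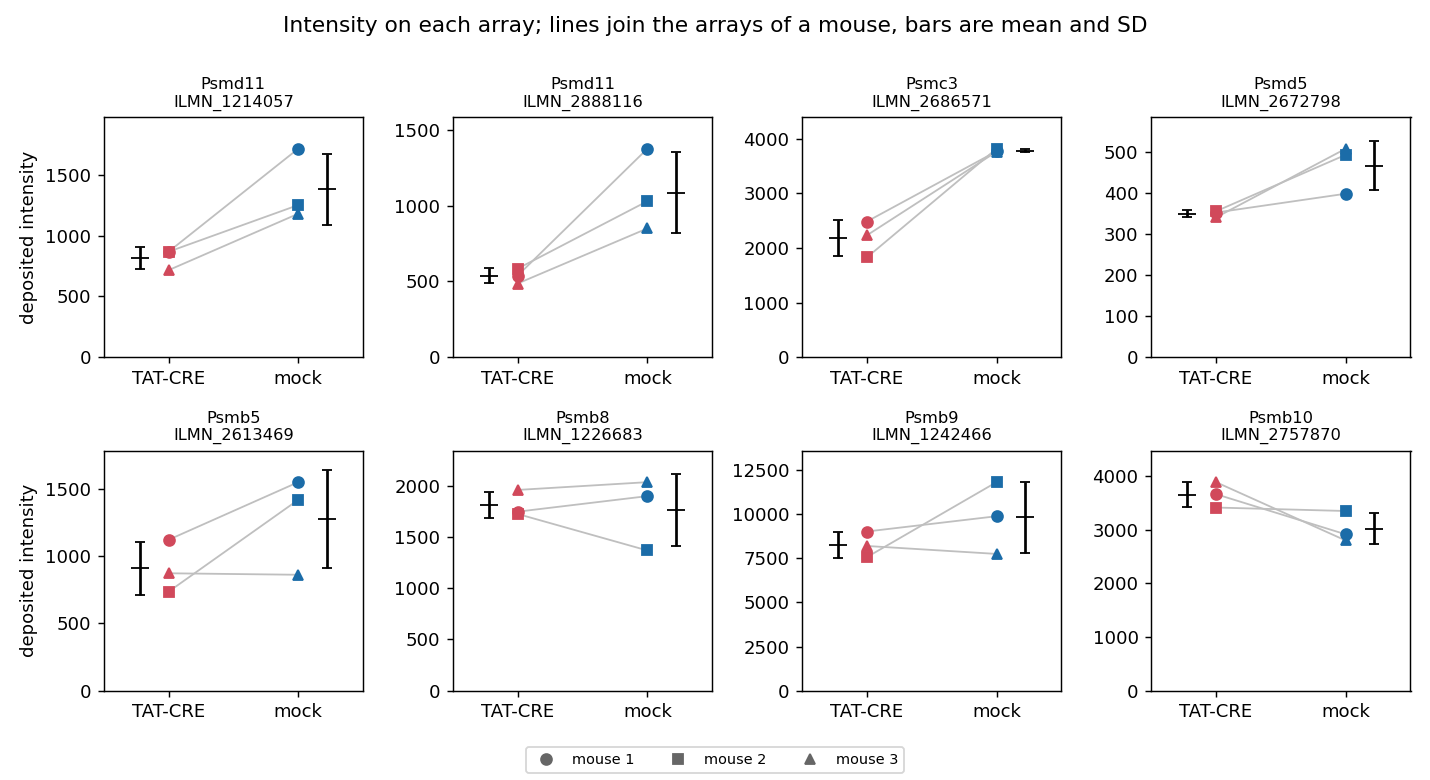
Deposited intensity (linear axes from 0) of 8 probes on each array, TAT-CRE left and mock right, with lines joining the arrays of a mouse and black bars for mean and SD (n = 3). For Psmd11 and Psmc3 all TAT-CRE points lie below all mock points, as they do for Psmd5, while the Psmb5, Psmb8 and Psmb9 groups overlap and all 3 Psmb10 points of TAT-CRE lie above mock.

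The other ATPases of the base gave no call. Psmc1, Psmc2, Psmc4, Psmc5 and Psmc6 had 7 tested probes between -0.31 and 0.28. For Psmc4 the arrays nearly coincided, at 8320, 9054 and 9584 in TAT-CRE cells, against 8659, 8757 and 9661 in mock cells, with a difference of -0.01 (95% confidence interval -0.39 to 0.37). The 2 Psmc5 probes parted. One differed by -0.31, with TAT-CRE values all below mock, and the other by 0.28, where mock 1 read 1898 and the other mock arrays 4881 and 4809. That second value was 1.27 in mouse 1 and -0.39 and -0.06 in mice 2 and 3, so it rests on mock 1.

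The scaffolds and receptors of the 19S particle also stayed short of the threshold. Psmd1, the large base scaffold known as Rpn2, had 3 probes at -0.36, -0.22 and 0.16, and on the first and second of these TAT-CRE lay below mock without overlap. Psmd2, the other large scaffold, differed by -0.21 on a dim probe. Psmd4, a ubiquitin receptor, differed by 0.14, and Psmd14, the deubiquitinase of the lid, by 0.13 and 0.01 on its 2 probes. Psmd13 of the lid differed by 0.31, again with 1 low mock array: it read 9263, 10056 and 8669 in TAT-CRE cells, against 5196, 9094 and 8999 in mock cells. Psmd8, another lid gene, had the opposite form, with a difference of -0.36 and a mock 1 value of 6778 against 3502 and 3914 on the other mock arrays. The other lid genes, Psmd6, Psmd7 and Psmd12, had 7 tested probes between -0.29 and 0.14, of which 1, for Psmd7, had every TAT-CRE array below mock.

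Psmd5, Psmd9 and Psmd10 are counted with the 19S genes but act as chaperones in assembly of its base. Psmd5 read 352, 355 and 340 in TAT-CRE cells, against 398, 492 and 507 in mock cells. The groups did not overlap, with mock 1 the nearest to TAT-CRE. The difference of -0.53 did not pass (SE 0.19, limma adjusted p = 0.0709), although it passed without mouse 1 (-0.68, adjusted p = 0.0497) and with array weights (-0.58, adjusted p = 0.0312). Psmd9 differed by 0.08 and -0.02, and Psmd10 by between -0.27 and -0.05 over 3 probes.

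None of the 7 tested probes of the 20S alpha ring changed in limma, and their median was -0.11. Psma4 came nearest. It read 11772, 11707 and 12175 in TAT-CRE cells, against 15159, 14541 and 17569 in mock cells, and every TAT-CRE array lay below every mock array. The difference was -0.40 (SE 0.18, limma adjusted p = 0.156), and it passed with a mean-dependent, robust variance model (adjusted p = 0.0475). Psma2, Psma5 and Psma7 lay between -0.17 and 0.07. Psma8, a testis variant of the alpha ring, was near background. Psma1, Psma3 and Psma6, obligate subunits of the ring, each have 1 probe, and none was above background on more than 1 array, so these genes were not measured here.

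Among the 20S beta genes, none of 12 tested probes changed, with a median of -0.01. The catalytic subunits did not share a direction. Psmb5, the chymotrypsin-like site, read 1121, 735 and 872 in TAT-CRE cells, against 1549, 1418 and 861 in mock cells. The groups overlapped through mouse 3, whose difference was 0.02, against -0.50 and -1.04 in mice 1 and 2, and the fitted value of -0.51 did not pass (limma adjusted p = 0.121).

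Psmb6, the caspase-like site, gave 0.36 and -0.07 on its 2 probes (limma adjusted p = 0.212 and 0.846). The first of these read 5903, 6105 and 5258 in TAT-CRE cells, against 4163, 5043 and 4326 in mock cells, with no overlap between groups. Psmb7, the trypsin-like site, gave between 0.00 and 0.35 on 4 probes, the highest through a low mock 1 value. The structural subunits Psmb1, Psmb2, Psmb3 and Psmb4 lay between -0.25 and 0.07. Psmb11, the thymus-specific form of the chymotrypsin-like subunit, was above background on 1 of 6 arrays and was not tested.

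The 3 immunoproteasome subunits were above background on every array, and none of their 5 probes changed. Psmb8 read 1746, 1723 and 1958 in TAT-CRE cells, against 1898, 1368 and 2034 in mock cells, on probe ILMN_1226683, with a difference of 0.06 (95% confidence interval -0.34 to 0.45). Its second probe differed by -0.02. Psmb9 read 9014, 7561 and 8195 in TAT-CRE cells, against 9879, 11809 and 7744 in mock cells. These groups overlapped, and Psmb9 differed by -0.23 (limma adjusted p = 0.480), with a 95% confidence interval of -0.65 to 0.18.

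Psmb10 was higher in each of 3 mice on both its probes without passing, but in mouse 2 only by 0.03 and 0.04. Probe ILMN_2757870 read 3660, 3411 and 3884 in TAT-CRE cells, against 2912, 3346 and 2797 in mock cells, a difference of 0.29 (limma adjusted p = 0.349), and the other probe differed by 0.22, with groups that overlapped. Whether the immunoproteasome genes moved differently from Psmb5, Psmb6 and Psmb7 was not tested.

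The activators open the core barrel without the 19S particle. Psme1 and Psme2 form the interferon-inducible cap, and Psme3 the nuclear one. None of 6 tested probes changed, and the median was -0.09. Psme1 gave -0.24 and -0.01, the first through mock 2 alone, which read 8464 against 5040 and 5349 on the other mock arrays. Psme2 read 298, 311 and 234 in TAT-CRE cells, against 281, 293 and 283 in mock cells, with a difference of -0.06.

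Psme3 and Psme4 did not pass either. Psme3 read 3205, 3183 and 3337 in TAT-CRE cells, against 3752, 3737 and 4236 in mock cells, a difference of -0.27 (limma adjusted p = 0.352) with no overlap. Psme4, a large single-chain activator linked to histone degradation, read 3629, 3879 and 3979 in TAT-CRE cells, against 2601, 3117 and 3289 in mock cells, a difference of 0.37 (limma adjusted p = 0.203), also with no overlap. A second Psme4 probe, above background on 3 arrays, differed by -0.12.

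Assembly chaperones of the 20S core did not pass either. Psmg1, which pairs with Psmg2 to seed the alpha ring, read 1094, 1136 and 1239 in TAT-CRE cells, against 1803, 1502 and 1450 in mock cells. TAT-CRE lay below mock throughout, and the difference of -0.48 had a limma adjusted p of 0.100. Psmg2 gave 0.34, 0.00 and 0.06 on 3 probes. Psmg3 and Psmg4 differed by -0.12 and -0.20, and Pomp, the maturation factor that lies outside the symbol pattern, by 0.02. Psmc3ip differed by -0.16, and Psme3ip1 by 0.01 and -0.12.

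Separation of the groups can also be counted without a threshold on p. All 3 TAT-CRE arrays lay below all 3 mock arrays for 13 of 71 probes (18.3%), against 15.5% of all tested probes, and above them for 4 (5.63%), against 16.4%. These shares were not tested, since subunits that vary together are not independent.

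**Figure D3:**
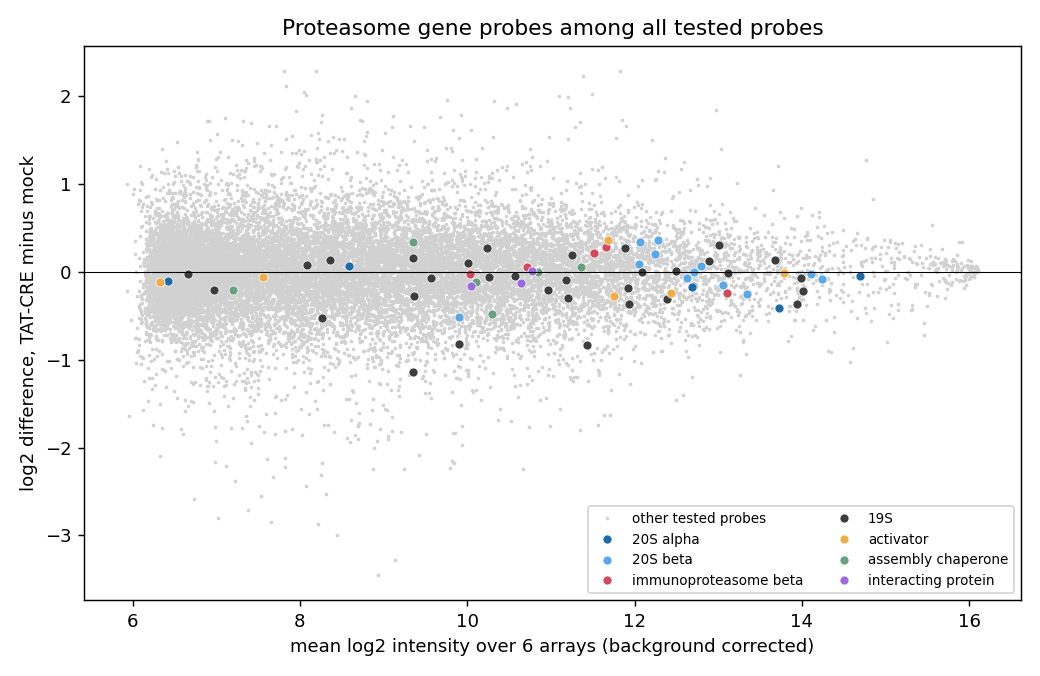
Log2 difference (TAT-CRE minus mock) against mean background-corrected log2 intensity for all 19217 tested probes in grey, with proteasome probes coloured by role. The proteasome probes lie between -1.13 and 0.37 and cover most of the intensity range, with Psmd11 and Psmc3 as the lowest points.

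Several probes of 1 gene gave a view of how far a value depends on the probe. Of 21 genes with 2 or more tested probes, the differences spanned a median of 0.22 and at most 0.58, for Psmc5, and in 13 genes they lay on both sides of 0. Only Psmd11 had every tested probe called. Not tested were 15 probes and with them 5 genes, namely Psma1, Psma3, Psma6, Psmb11 and Psmd3. Of the tested probes 68 were above background on all 6 arrays, and Psma8 and 1 probe each of Psmd9 and Psme4 on fewer.

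Promoter windows were given for 41 of the 49 genes (RefSeq, GRCm38.p6), and not for Psma8, Psmb1, Psmb2, Psmb7, Psmc3, Psmd3, Psmd7 and Psmg2. AANATGGC was found in 6 of the 41 (14.6%), against 10.5% of 8107 tested genes with a window and 6.96% of all 27025 genes in the table. The 6 were Psma2, Psma4, Psmb5, Psmb6, Psmc5 and Psmd8. Their 8 tested probes differed by between -0.51 and 0.36, and 0 were called in limma, while Psma4 and Psmb5 had an unadjusted p under 0.05. TGACNNNGC was found in 6 of 41 as well (Psmb5, Psmb6, Psmc6, Psmd9, Psmd12 and Psme4), against 16.7% of tested genes. None of the 10 tested probes of these genes was called, with differences between -0.51 and 0.37. Matches of the 2 motifs did not overlap in any window. A match describes letters and is not evidence of binding.

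Among genes that work with the proteasome, Uba6 rose and Ubqln4 fell. Of 28 tested probes for ubiquitin receptors, deubiquitinases, assembly factors and ubiquitin enzymes (13 genes), 1 was higher and 1 lower, 7.14% in all, against 13.7% of all tested probes, with a median of -0.09. Uba6, an enzyme that activates ubiquitin, read 2479, 2446 and 2401 in TAT-CRE cells, against 1937, 1278 and 1448 in mock cells, and rose by 0.71 (limma adjusted p = 0.0192), while its second probe differed by -0.08. Ubqln4, a shuttle that brings ubiquitinated proteins to the proteasome, fell by 0.64 (limma adjusted p = 0.0292). The Uba6 call was lost without mouse 2 or 3 (adjusted p = 0.0833 and 0.107) and the Ubqln4 call without mouse 1, 2 or 3 (0.0862, 0.110 and 0.0515).

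The deubiquitinases that dock on the 19S particle lay lower without passing. Uchl5 had 4 probes between -0.58 and -0.37, the lowest with a limma adjusted p of 0.0517, and Usp14 differed by -0.55 (adjusted p = 0.0716) on 1 probe and by 0.02 on a dim one. Their side of the threshold depended on the setting: the 2 Uchl5 probes of smallest p passed in 7 and 5 of 13 alternatives and the first Usp14 probe in 5 of 14, among them the fit without mouse 2 (limma adjusted p = 0.0261, 0.0336 and 0.0213). Ubqln1 differed by -0.46 on the lowest of 4 probes and Sem1, a small lid subunit outside the symbol pattern, by 0.36 (adjusted p = 0.133 and 0.209). Adrm1, a ubiquitin receptor, was not analysed here.

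Factors that set proteasome gene transcription, and the pathway that hands over proteins from the endoplasmic reticulum, had 2 of 38 tested probes higher and 3 lower, 13.2% in all, a share close to the 13.7% of all tested probes. Nfe2l1 has a single probe here, which read 3130, 2962 and 2484 in TAT-CRE cells, against 2870, 4443 and 4077 in mock cells, and its difference of -0.40 did not pass (limma adjusted p = 0.211). Nfe2l2, the related antioxidant regulator, differed by -0.34, and Vcp, the segregase that extracts proteins from membranes, by -0.01. Stat3 fell by 0.78 on 1 of 3 probes, and the others differed by -0.46 and -0.44 without passing. Nfyb, a subunit of the CCAAT-binding factor NF-Y, fell by 0.75, while Nfyc of the same factor rose by 0.60. Nsfl1c, a Vcp cofactor, fell by 0.63, and Syvn1, the ubiquitin ligase of the endoplasmic reticulum, rose by 0.73. The limma adjusted p of these 5 called probes lay between 0.0106 and 0.0434. Derl2, a channel component of that pathway, differed by -0.50 on 1 probe (limma adjusted p = 0.0760). Its other tested probes differed by -0.49 and 0.19 (limma adjusted p = 0.122 and 0.590).

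Those calls were each lost in a fit with a mouse left out, where the adjusted p rests almost wholly on the spread of all probes. Without mouse 2 the adjusted p was 0.0699 for Nfyb, 0.104 for Syvn1, 0.106 for Nsfl1c and 0.190 for Nfyc. Without mouse 1 it was 0.0612 for Stat3 and 0.0917 for Nfyc, and without mouse 3 it was 0.0653 for Stat3, 0.138 for Nsfl1c and 0.0746 for Nfyc. In the fit without the mouse, Stat3 had an adjusted p of 0.0593.

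MHC class I antigen processing, the pathway that the immunoproteasome feeds, held 6 falls on 5 genes, among them H2-Q7, H2-K1, Nlrc5 and Tapbp. Of 39 tested probes 6 were lower and 0 higher in limma (12 and 1 at an unadjusted p under 0.05, where all tested probes had 14.1% lower and 13.3% higher), a share of 15.4% lower, against 7.15% of all tested probes, and the median was -0.17. The list was chosen with earlier results of these data known, and its probes are not independent. That share was not tested and is no evidence for a fall of the list as a set. H2-Q7, a nonclassical class I gene, read 208, 191 and 188 in TAT-CRE cells, against 440, 289 and 275 in mock cells, and fell by 1.17 (limma adjusted p = 0.000654). H2-K1, a classical class I heavy chain, read 688, 658 and 602 in TAT-CRE cells, against 1243, 1202 and 804 in mock cells, and fell by 0.80 (limma adjusted p = 0.00882). Class I genes are close copies, so which of them a probe reads is uncertain, and the other probes of H2-Q7 and H2-K1 did not pass, at -0.62, -0.30 and -0.28.

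Nlrc5, the transactivator of class I genes, read 1176, 1134 and 1201 in TAT-CRE cells, against 2079, 1676 and 1665 in mock cells, and fell by 0.66 (limma adjusted p = 0.0232). Tapbp, which loads peptides onto class I, fell by 0.64 and 0.68 on 2 probes, and H2-D1 by 0.66 on 1 of 4. Tap1, a subunit of the peptide transporter, differed by -0.49 (limma adjusted p = 0.141), and B2m, the class I light chain, by -0.09 and 0.03. The regulator Irf1 gave between -0.24 and 0.11 on 4 probes, none of them called. The Nlrc5 call was lost without mouse 1 or 3 (adjusted p = 0.130 and 0.0718). That of H2-D1 was lost without mouse 1 or 2 (0.212 and 0.131) and without the mouse in the fit (0.0766). The first Tapbp probe lost its call without mouse 1, 2 or 3 (0.102, 0.0921 and 0.0583) and the second without mouse 2 (0.226).

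**Figure D4:**
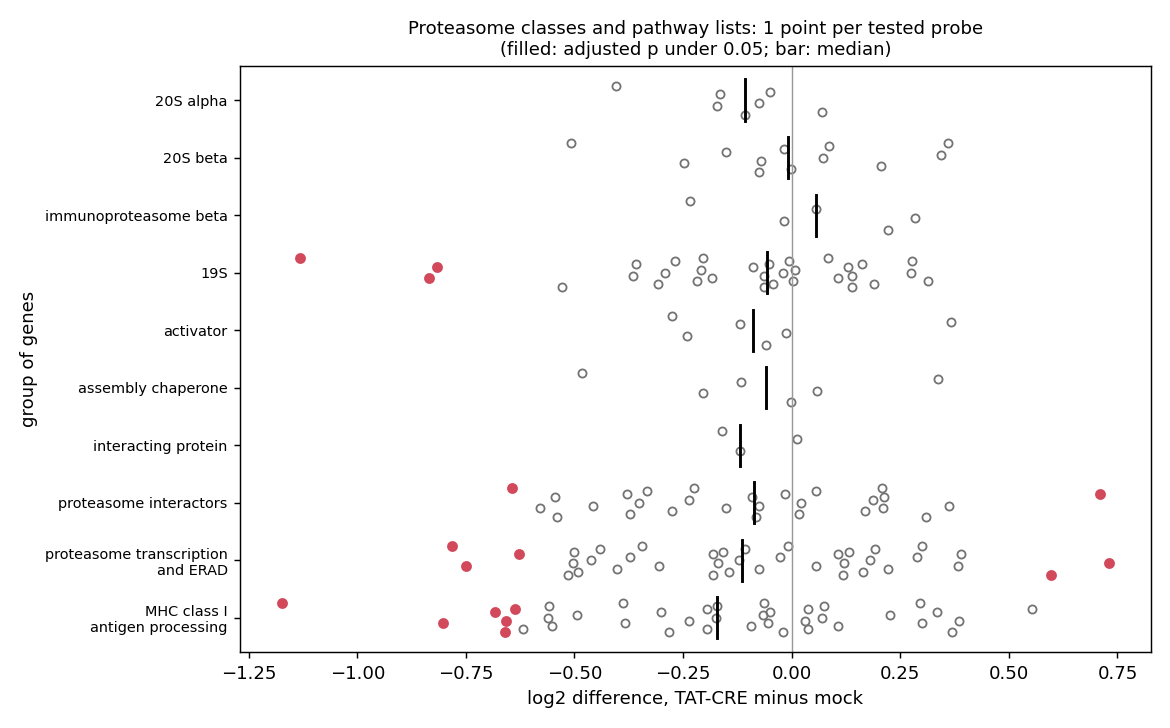
Log2 difference (TAT-CRE minus mock) of every tested probe by role in the proteasome, and in the 3 lists of partner genes, with filled points for an adjusted p under 0.05 and black bars for medians. Filled points in the proteasome rows lie in the 19S row alone, which holds 32 of the 71 tested probes. The class I row holds 6 filled points, all below 0.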

How the data were processed

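The authors' deposited table holds linear intensity values for 45281 probes on 6 Illumina arrays made from biotin-labelled complementary RNA, with GenomeStudio 1.8 listed, per the submitters' processing notes. Sorted columns differ by at most 2.1, so the deposited intensities were already quantile normalized, and array medians near 161.5 show that background was not subtracted. A second deposited table has 12 columns of signals and detection p-values whose names match no label, and none was used. Using limma 3.58.1 (R 4.3.3), background was corrected by normexp with an offset of 16, arrays were quantile normalized again, and the deposited intensities were put on a log2 scale. The offset shrinks the fold changes of dim probes.

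Probes above the per-array 95th percentile of 1501 olfactory and vomeronasal receptor probes on at least 3 arrays were kept, 19217 in all. Genes came from GEO's platform annotation (34885 probes with 1 gene, 18 with several, 10378 with none), of which 34807 probes matched RefSeq (GRCm38.p6) by Entrez identifier and 0 symbols changed. Groups came from sample titles. The comparison used lmFit and eBayes, two-sided, with the mouse as a block. The design text ties same-numbered arrays to 1 mouse, and their deviations from group means correlated at 0.119, 0.0255 and 0.0539. The procedure was tested on simulated data. Named genes were the called members, the catalytic, activator and chaperone genes, and from each partner list the 6 probes of smallest p and fixed regulators. Other members and Sem1 were named after their values were seen. Members and lists were chosen with earlier results of these data known. Alternatives covered background correction, normalization, filter, mouse block, variance model, array weights, probe choice, threshold and each mouse left out. Figures used matplotlib 3.10.9.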

Additional observations from a re-analysis of the deposited data

How the results depend on the processing

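The calls of the Psmd11 and Psmc3 probes kept their direction in every alternative tried, and the count of lower proteasome probes was 3 in the main analysis, 1 with no filter on dim probes, where 45281 probes share the adjustment (adjusted p = 0.0529 for Psmc3 and 0.0580 for the second Psmd11 probe), and between 3 and 4 with a mouse left out. No alternative called a proteasome probe higher. Without background correction the differences were -0.99 and -0.74 for Psmd11 and -0.81 for Psmc3. The fit without the replicate block called 1185 probes higher and 1231 lower over the whole table, with 3 lower proteasome probes, changed no proteasome call, and lost the calls of H2-D1, Stat3 and the Fcer2a marker probe (adjusted p = 0.0766, 0.0593 and 0.0531). Over all tested probes the counts were 1260 higher and 1374 lower. They were 497 and 585 with no filter, 597 and 654 at an adjusted p of 0.01, and between 803 and 1249 higher and between 848 and 1349 lower with a mouse left out. With 1 probe per gene 884 genes were lower, of 9932 tested. The Yy1 probe was called lower in each alternative that tested it, and since it was not above background on the TAT-CRE arrays its size is given only as a bound. The number of arrays, and a mock group that varied more than the TAT-CRE group, limit what could be detected.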
